A study of Mus musculus with 17 samples.

Results

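The 4 genes described here, Ly6a, Ly6c1, Ly6c2 and Ly6e, belong to the Ly6 family of small surface proteins, and their rows were taken by symbol from the 49585 genes counted in each library. Ly6a encodes Sca1, an antigen used in the cell sort itself. Mouse bone marrow endothelial cells were profiled in 17 libraries made by SmartSeq2, which copies and amplifies whole polyadenylated transcripts. The knockout (KO) line carried Cdh5:CreERT2, a Cre recombinase that tamoxifen activates and that the endothelial Cdh5 promoter drives, together with an Eng allele floxed around exons 5 and 6 (Engf/f). Eng encodes Endoglin, a co-receptor for ligands of the TGF-beta family. All libraries, wild type (WT) included, carry the label of tamoxifen injection; induction was at 8 weeks of age, and the labels do not give the Cre or Eng alleles of the WT mice. There were 4 WT and 4 KO libraries at 2 weeks after induction (2 females and 2 males each), and 5 WT (2 females, 3 males) and 4 KO (1 female, 3 males) at 4 weeks. Nothing in the labels says that each library came from a separate animal, so p-values measure the spread between these libraries, which may in part be technical.

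Ly6 proteins have a three-finger fold held by disulphide bonds, and most are tethered to the outer leaflet of the plasma membrane by a glycosylphosphatidylinositol (GPI) anchor. Sca1 is best known as a marker of mouse blood stem cells and is also carried by endothelium, where in marrow it is reported to be higher on arterial than on sinusoidal vessels. The Ly6C antigen, encoded by Ly6c1 and Ly6c2, marks monocytes and is also found on endothelial cells, and several members are known to respond to interferon.

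The sort took cells without CD45 and Ter119 and with CD31 and Sca1, per the extraction protocol, while the series' design text gives the gate without Sca1. A gate on Sca1 protein selects for cells that carry the Ly6a product, so the level of Ly6a in these cells is not a sample of all marrow endothelium. CD31 transcripts (Pecam1) were at 688 to 3143 CPM (the count divided by the library total in mega-counts), and all 14 pan-endothelial markers were above 3 counts in every library. Transcripts of Ptprc, which encodes CD45, reached 15.6 CPM in the KO male m2 of 2 weeks and no more than 2.57 CPM in any other library. Total counts ran from 20477400 to 40882715. At 2 weeks the libraries held 10886 to 13583 detected genes and 22.2% to 29.5% mitochondrial counts, against 15996 to 21235 genes and 4.66% to 8.99% at 4 weeks. No batch is given in the labels, so time after tamoxifen and any batch cannot be told apart. The targeted gene Eng was at 705 to 1307 CPM in WT and 225 to 347 CPM in KO at 2 weeks, and at 2399.8 to 2735 CPM and 274 to 1647 CPM at 4 weeks. At each time the highest KO value was below the lowest WT value.

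The members lie close together on chromosome 15 (GENCODE M21 annotation of GRCm38). Ly6e (ENSMUSG00000022587) is at chr15:74955051-74959905 on the plus strand. Ly6a (ENSMUSG00000075602) is at chr15:74994877-74998031, Ly6c1 (ENSMUSG00000079018) at chr15:75044018-75048830 and Ly6c2 (ENSMUSG00000022584) at chr15:75108158-75111970, all on the minus strand. All are protein-coding, and none of their exons overlaps an exon of another annotated gene. Over the aligned coding bases Ly6c1 and Ly6c2 were 90.6% identical (356 of 393), Ly6a and Ly6c2 83.5%, and Ly6a and Ly6c1 76.3%. Ly6e was 52.2% to 56.7% identical to the other members. How close the Ly6c pair is can be seen in coding bases 6 to 65, shown because reads of these genes must be told apart by such differences; capitals mark the 6 bases that differ.
Ly6c1: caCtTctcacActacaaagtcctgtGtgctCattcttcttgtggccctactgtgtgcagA
Ly6c2: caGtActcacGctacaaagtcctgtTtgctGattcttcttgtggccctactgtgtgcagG
Of all 50-base stretches of the annotated transcripts, 32.8% in Ly6c1, 19.0% in Ly6a and 14.4% in Ly6c2 also occurred in another gene, against 0% in Ly6e. At 100 bases the shares were 10.1%, 1.45%, 5.81% and 0%. The counts of Ly6a, Ly6c1 and Ly6c2 are therefore uncertain where the authors' counting could have split or dropped shared reads; those of Ly6e do not have this limit at these lengths.

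The promoter sequences of the Ly6c pair are printed because the levels of these genes differed so widely while their upstream sequence is alike. They are from the RefSeq promoter table (GRCm38.p6), which 2 of the 4 members matched, Ly6c1 and Ly6c2, with 2 annotated starts each; Ly6a and Ly6e are the other members. For each gene 1 start is shown; these windows are the most alike of the 4 pairings of a Ly6c1 and a Ly6c2 start, which ranged from 48.2% to 78.2% identity. The windows run from 250 bases before to 50 after the start, 5′ to 3′ on the minus strand, at chr15:75048788-75049087 for Ly6c1 and chr15:75111922-75112221 for Ly6c2. Capitals mark the letters CAGAC on either strand (GTCTG on the strand shown), the core that SMAD proteins recognise.
Ly6c1: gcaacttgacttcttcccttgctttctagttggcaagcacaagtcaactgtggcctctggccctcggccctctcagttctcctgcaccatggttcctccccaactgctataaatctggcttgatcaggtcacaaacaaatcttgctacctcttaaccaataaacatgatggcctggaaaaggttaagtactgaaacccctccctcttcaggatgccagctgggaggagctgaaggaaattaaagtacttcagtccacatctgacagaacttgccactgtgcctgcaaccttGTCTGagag
Ly6c2: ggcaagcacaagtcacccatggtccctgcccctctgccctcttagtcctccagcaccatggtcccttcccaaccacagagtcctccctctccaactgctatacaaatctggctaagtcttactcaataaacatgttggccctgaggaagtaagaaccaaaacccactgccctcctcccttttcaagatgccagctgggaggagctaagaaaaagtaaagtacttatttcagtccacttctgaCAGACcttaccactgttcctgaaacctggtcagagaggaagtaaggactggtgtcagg
Over 266 aligned bases the 2 windows were 78.2% identical. CAGAC occurred 1 time in each; it is in 49.6% of all 32851 promoters of the table, searched on both strands. The interferon-related letters TTCNNNGAA (GAS, in 8.30% of all promoters) and GAAANNGAA (a core of the ISRE, in 8.56%) were not in these windows, nor was the BMP element GGCGCC (in 11.9%). A match of letters is a description, and the absence of letters concerns only these windows.

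Ly6c1, Ly6a and Ly6e were among the most abundant nuclear transcripts of the sorted cells, whereas Ly6c2, the closest relative of Ly6c1, was orders of magnitude lower. Per kilobase of merged exons (CPM per kb), which allows comparison between genes, Ly6c1 was at 1164 to 3157, Ly6a at 1229 to 2482, Ly6e at 803 to 1723 and Ly6c2 at 0.250 to 29.1 over the 17 libraries. In 15 of 17 libraries the order was Ly6c1, Ly6a, Ly6e, then Gpihbp1, then Ly6c2, and in the other 2 Ly6a stood above Ly6c1. Among 21721 nuclear protein-coding genes, Ly6c1 took ranks 3 to 19 per kb, Ly6a 5 to 15 and Ly6e 11 to 36. Ly6c2 took ranks 1411 to 10942. The ranges of Ly6c1 and Ly6a per kb overlapped and are not clearly ordered apart, and their neighbour Ly6e lay below both in every library.

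Together the 4 members made up 84.4% to 91.7% of the summed CPM of the Ly6/uPAR family, of which 45 of 50 listed symbols were in the annotation. Of the 41 family genes outside the members, 3 were above 3 counts in all 17 libraries, 19 in some libraries only, and 19 at or under 3 counts in every library. The 3 detected throughout were Gpihbp1, the endothelial protein that carries lipoprotein lipase into the capillary lumen, Cd59a, an inhibitor of the complement membrane attack complex, and Plaur, the urokinase receptor. Gpihbp1 was at 553 to 1745 CPM, Cd59a at 31.1 to 170.1 CPM and Plaur at 13.5 to 119.8 CPM. The next in mean level were Ly6g6d (0 to 19.8 CPM), Lynx1 (0 to 22.1 CPM) and Ly6g (0 to 55.3 CPM), each at 0 in some libraries; exons of Ly6g6d overlap those of Ly6g6e.

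**Figure D1:**
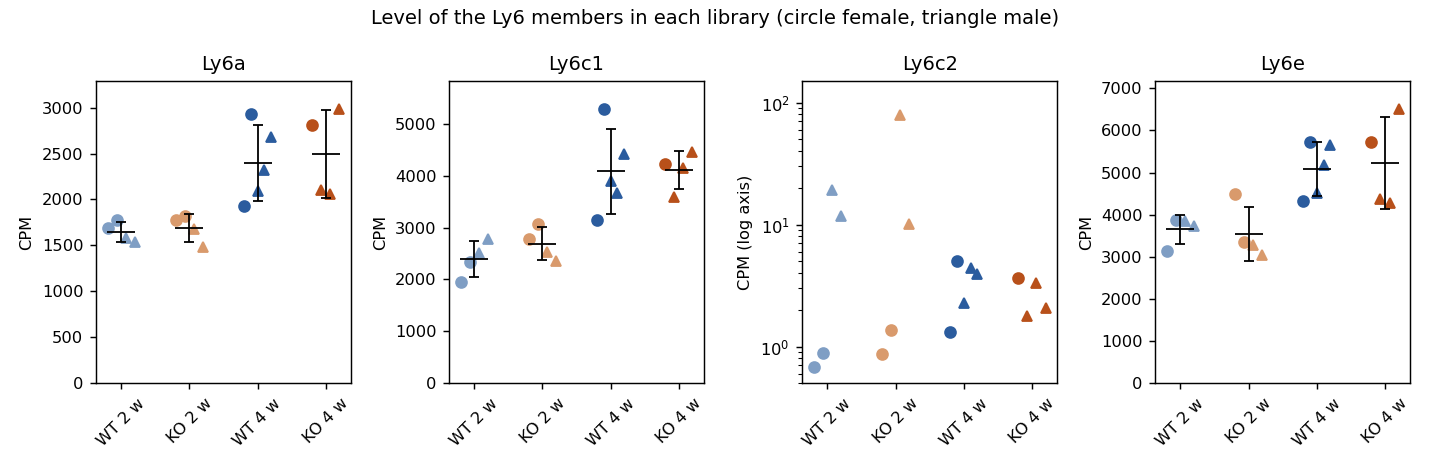
CPM of Ly6a, Ly6c1, Ly6c2 and Ly6e in each of 17 libraries, by genotype and weeks (w) after tamoxifen; bars give mean and SD, except for Ly6c2, which is on a log axis without bars. WT and KO overlapped at each time point for all 4 genes. The 2-week males stood above the 2-week females for Ly6c2 and below them for Ly6a.

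The comparison of KO with WT asks whether loss of Endoglin in endothelium went with a change of these surface genes. WT and KO overlapped for all 4 members at both time points, and no difference passed the test. Ly6a, the Sca1 gene of the gate, was at 1688 (f1), 1774 (f4), 1580.5 (m2) and 1539 (m3) CPM in 2-week WT and at 1778 (f1), 1823 (f4), 1678 (m2) and 1481 (m3) CPM in 2-week KO. The groups overlapped almost fully, with the highest and the lowest value both in KO. At 4 weeks Ly6a was at 1930.4 (f), 2932 (f3), 2096 (m1), 2326 (m2) and 2683 (m3) CPM in WT and 2811 (f2), 2102 (m1), 2060.1 (m2) and 2990.3 (m3) CPM in KO. The range within a genotype was larger than the distance between them. On the log2 scale the KO effect on Ly6a was 0.04 (SE 0.0674) at 2 weeks and 0.09 (SE 0.196) at 4 weeks; the adjusted p was 1 and 0.999735 (edgeR, Benjamini-Hochberg), as for the other members. The 95% intervals of the fold were 0.920 to 1.15 at 2 weeks and 0.781 to 1.45 at 4 weeks, so a change of the size of a doubling lay outside both.

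Ly6c1, the more abundant Ly6C gene here, was at 1952 (f1), 2335 (f4), 2504 (m2) and 2782 (m3) CPM in 2-week WT. In 2-week KO it was at 2786 (f1), 3078 (f4), 2529 (m2) and 2358 (m3) CPM. The KO females were above every WT library, while the KO males lay among the WT libraries. At 4 weeks Ly6c1 was at 3149.7 (f), 5295 (f3), 3904 (m1), 3659 (m2) and 4412 (m3) CPM in WT and 4222 (f2), 3596 (m1), 4150.3 (m2) and 4458 (m3) CPM in KO. Here all KO values fell inside the WT range. The KO effect was a log2 fold change of 0.17 (SE 0.135) at 2 weeks and 0.03 (SE 0.182) at 4 weeks, and the 95% intervals of the fold were 0.902 to 1.40 and 0.766 to 1.36. KO m2 and m3, whose neutrophil markers are given with the Ly6c2 values by sex, are all the KO males of 2 weeks. Without them the 2-week value was 0.42 (SE 0.159, adjusted p = 0.838663 by edgeR) and rests on the KO females alone.

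Ly6e, whose product is known as an interferon-inducible protein that alters the entry of several viruses, was at 3142 (f1), 3874 (f4), 3843 (m2) and 3738 (m3) CPM in 2-week WT. In 2-week KO it was at 4493 (f1), 3359 (f4), 3288 (m2) and 3038 (m3) CPM. KO f1 was the highest of the 8 libraries, and the other KO libraries lay within or below the WT range. At 4 weeks Ly6e was at 4326 (f), 5715 (f3), 4523 (m1), 5169 (m2) and 5659.9 (m3) CPM in WT and 5719.6 (f2), 4362 (m1), 4277 (m2) and 6519 (m3) CPM in KO. The highest and the lowest 4-week values were both in KO. The KO effect was a log2 fold change of -0.05 (SE 0.119) at 2 weeks and 0.06 (SE 0.184) at 4 weeks, and the 95% intervals of the fold were 0.795 to 1.17 and 0.782 to 1.40.

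Ly6c2, the Ly6C gene known from monocytes, was at 0.684 (f1), 0.881 (f4), 19.1 (m2) and 11.8 (m3) CPM in 2-week WT and at 0.861 (f1), 1.36 (f4), 79.6 (m2) and 10.01 (m3) CPM in 2-week KO. Within each genotype the males stood far above the females, and the genotypes overlapped. At 4 weeks it was at 1.30 (f), 5.04 (f3), 2.27 (m1), 4.40 (m2) and 3.92 (m3) CPM in WT and 3.66 (f2), 1.79 (m1), 3.32 (m2) and 2.08 (m3) CPM in KO, from 44 to 137 counts a library. These values were low in all 9 libraries, and the groups overlapped. The KO effect was a log2 fold change of 1.02 (SE 1.08) at 2 weeks and -0.31 (SE 0.639) at 4 weeks. The 95% intervals of the fold, 0.348 to 11.8 and 0.295 to 2.20, were far wider than those of the other members. At 2 weeks a several-fold rise of Ly6c2 lay inside the interval; at 4 weeks a rise above 2.20 lay outside it, while a fall to 0.295 did not. Without KO m2 the 2-week value was 0.09 on the log2 scale, and without KO m2 and m3, which leaves no KO male, it was 0.48.

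These results have to be read against the fits as a whole. The share of genes past the adjusted threshold was 0% of 10477 genes at 2 weeks and 0% of 15209 genes at 4 weeks. At an unadjusted p under 0.05 there were 276 and 422 genes by edgeR. DESeq2 called 149 and 17 genes, and limma voom 12 and 0; the members had adjusted p-values of at least 0.775 at 2 weeks and 0.951 at 4 weeks under every alternative run. The mean KO effect over both time points, from all 17 libraries, was a log2 fold change of 0.07 for Ly6a, 0.10 for Ly6c1, 0.53 for Ly6c2 and 0.01 for Ly6e, all with adjusted p = 1, in a fit that called 0.0962% of 13515 genes. The value of Ly6c2 turned to -0.53 without KO m2 of 2 weeks, to -0.56 without KO f2 of 4 weeks and to -0.19 with a term for mesenchymal and bone genes. Eng was among those called (log2 fold change -1.83, SE 0.310, adjusted p = 0.0378); with the replicate block this fit called 0 genes, Eng included among those lost. The KO effects of the members at 4 and 2 weeks differed by 0.03 (SE 0.217) for Ly6a, -0.16 (SE 0.246) for Ly6c1, -1.85 (SE 1.68) for Ly6c2 and 0.10 (SE 0.229) for Ly6e. None of these differences passed (adjusted p = 1), and 0.104% of genes did. The difference for Ly6c2 ran from -3.79 without KO f2 of 4 weeks to 0.30 without KO m2 of 2 weeks; it was -0.71 without WT f3 of 4 weeks and -0.9997 with the replicate block.

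Of the family genes tested, 0 of 7 at 2 weeks and 0 of 14 at 4 weeks passed, with a median KO effect of 0.04 and -0.01 against -0.06 and 0.01 over all genes. The closest to a difference were Gpihbp1 at 4 weeks (log2 fold change 0.33, SE 0.140, unadjusted p = 0.0416, adjusted p = 0.999735 by edgeR) and Cd59a at 2 weeks (-1.02, SE 0.452, unadjusted p = 0.0584, adjusted p = 1). Genes of GPI anchor synthesis and attachment, which Ly6 proteins need to reach the surface, gave 0 of 20 and 0 of 28, with medians of -0.46 and -0.04. Interferon response genes gave 0 of 29 at each time point, with medians of 0.04 and 0.10. The 2 most abundant genes of the interferon list, the membrane proteins Ifitm3 and Bst2, were at 1452 to 2958 CPM and 220.4 to 726 CPM at 2 weeks.

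Some other marker lists stood further from the median of all genes between KO and WT, although none of their genes passed. Arterial endothelial genes gave 0 of 13 at 2 weeks, with a median of -0.66, and their summed level was 999 to 1101 CPM in KO against 1381 to 1522 CPM in WT. At 4 weeks they gave 0 of 14 with a median of 0.05, and the sums overlapped. Sinusoidal genes gave 0 of 9 and 0 of 12, with medians of 0.0016 and -0.15 and overlapping sums at both time points. Erythroid genes gave 0 of 6 at 2 weeks and 0 of 10 at 4 weeks, with medians of 2.18 and 1.56. Their sums were 278 to 1258 CPM in KO against 61.4 to 253 CPM in WT at 2 weeks, and 621 to 2922 against 172 to 1304 CPM at 4 weeks. Neutrophil genes gave 0 of 8 at each time point, with medians of 4.73 and 0.32, and monocyte and macrophage genes 0 of 4 and 0 of 7, with medians of 2.54 and 0.11. Mesenchymal and bone genes gave 0 of 8 and 0 of 10, with medians of -0.50 and -0.42; their sums overlapped at both time points (1144 to 1497 CPM in KO against 1470 to 1966 CPM in WT at 2 weeks). Only the arterial and erythroid sums of KO and WT did not overlap at 2 weeks among the lists given here. The share of all genes with such a gap was not counted, so nothing is read from it. The part of the list differences in the Ly6 values was not tested.

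**Figure D2:**
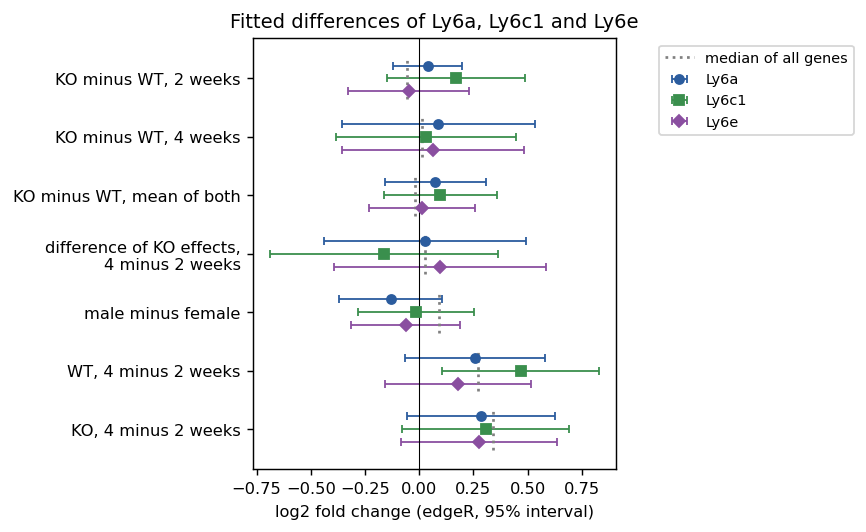
Fitted log2 fold changes (edgeR) of Ly6a, Ly6c1 and Ly6e in 7 comparisons, with 95% intervals as bars; the dotted lines give the median of all genes tested. All intervals include 0 except that of Ly6c1 between 4 and 2 weeks in WT, whose adjusted p was 0.122.

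Ratios of members within a library do not depend on how libraries are scaled. Ly6a counts relative to Ly6c1 counts, which set the gene of the gate against its neighbour outside the gate, were 0.553 to 0.864 in 2-week WT and 0.592 to 0.663 in 2-week KO. At 4 weeks they were 0.537 to 0.636 and 0.496 to 0.671. Ly6c2 gave 0.350 to 7.63 counts per 1000 counts of Ly6c1 in 2-week WT, 0.309 to 31.5 in 2-week KO, 0.414 to 1.20 in 4-week WT and 0.468 to 0.868 in 4-week KO. Over the 4 tests of KO against WT, exact permutation (two-sided) gave p of 0.429 to 0.8, with an adjusted p of 0.8 in each; the smallest p that the design allows is 0.0286 at 2 weeks and 0.0159 at 4 weeks.

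Ly6c2 was split by the sex label at 2 weeks. All 4 males (10.01 to 79.6 CPM, 364 to 2365 counts) were above all 4 females (0.684 to 1.36 CPM, 23 to 46 counts), in both genotypes. Among 10477 genes tested at 2 weeks, 2.06% had every male above every female. The pattern was not present at 4 weeks, where 3 females were at 1.30 to 5.04 CPM and 6 males at 1.79 to 4.40 CPM. In the fit over all libraries the male minus female difference of Ly6c2 was 1.83 on the log2 scale (SE 1.03), unadjusted p = 0.0972 and adjusted p = 1, where 0.0296% of 13515 genes passed. It was 1.37 to 3.04 with 1 library left out, lowest without KO f1 of 2 weeks and highest without KO f2 of 4 weeks, 0.29 by limma voom and 2.67 with the term for mesenchymal and bone genes. For Ly6a, Ly6c1 and Ly6e it was -0.13 (SE 0.111), -0.01 (SE 0.125) and -0.06 (SE 0.117). Ly6a was also split by sex at 2 weeks, the other way, with females at 1688 to 1823 CPM and males at 1481 to 1678 CPM. At 4 weeks the sexes overlapped in Ly6a (1930.4 to 2932 and 2060.1 to 2990.3 CPM). The share of genes with every female above every male was not counted. The sex term was not fitted within 2 weeks alone as a test of its own.

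Markers of neutrophils were high in 2 of these males, KO m2, which had the highest Ly6c2, and KO m3, which had the lowest Ly6c2 of the 4. The summed level of 11 neutrophil genes, of which Ly6g is also a family gene, was 4118 CPM in KO m2 and 3216 CPM in KO m3, against 22.6 to 237.5 CPM in the other 2-week libraries. Ly6g, a surface marker of mouse neutrophils, was at 14.0 CPM in KO m2 and 55.3 CPM in KO m3 and at 0 to 0.0245 CPM elsewhere at 2 weeks. The Ly6 pseudogene I830127L07Rik was at 36.0 and 16.3 CPM in these libraries and at no more than 0.0265 CPM in the other 2-week libraries. The WT males m2 and m3, whose Ly6c2 was also above the females, had neutrophil sums of 22.6 and 110.0 CPM, Ly6g at 0, and Ly6i, another family member, at 7.24 and 11.2 CPM. Ly6i was at 0 and 0.0275 CPM in KO m2 and m3, so it did not follow Ly6c2 across the 4 males. Summed monocyte and macrophage markers were at 433 and 348 CPM in KO m2 and m3 and at 14.0 and 52.4 CPM in WT m2 and m3, against 19.9 to 142 CPM in the females. The part of these cells in the Ly6c2 level was not tested, and in such bulk libraries fewer cells of a type and less RNA per cell cannot be told apart. I830127L07Rik and Ly6i were chosen for naming after their values were seen.

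**Figure D3:**
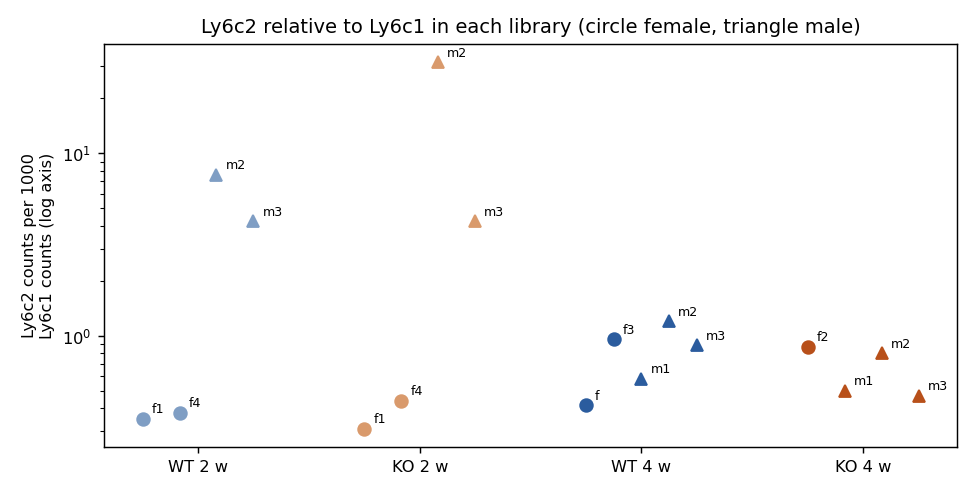
Ly6c2 counts per 1000 Ly6c1 counts in each library, on a log axis, by genotype and weeks (w) after tamoxifen. The 4 males of 2 weeks sit between 4.23 and 31.5, above all other libraries, which sit between 0.309 and 1.20.

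Ly6a and Ly6c1 were higher in CPM at 4 than at 2 weeks, but no member passed the test between the time points in either genotype. In CPM every 4-week library was above every 2-week library for Ly6a (1930.4 to 2990.3 against 1481 to 1823) and for Ly6c1 (3149.7 to 5295 against 1952 to 3078). Ly6e did so within WT (4326 to 5715 against 3142 to 3874), whereas in KO the highest 2-week library (4493) exceeded the lowest at 4 weeks (4277). The share of all genes with every 4-week library above every 2-week library was 6.24% over both genotypes, 17.4% within WT and 21.6% within KO. The mitochondrial share fell between the time points, and with mitochondrial genes left out of the library total, a scale added after the data were seen, the ranges overlapped for all 4 members. Ly6a was then at 2050.4 to 2482 CPM at 2 weeks and 2025 to 3221 CPM at 4 weeks, Ly6c1 at 2663 to 4191 and 3304 to 5818 CPM, and Ly6e at 4286 to 5774 and 4532 to 6979 CPM.

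In the edgeR fit the 4 minus 2 weeks difference in WT was, on the log2 scale, 0.26 (SE 0.150, adjusted p = 0.456) for Ly6a, 0.47 (SE 0.169, adjusted p = 0.122) for Ly6c1, -0.74 (SE 1.27, adjusted p = 0.920) for Ly6c2 and 0.18 (SE 0.158, adjusted p = 0.724) for Ly6e. The median of all genes was 0.27, so Ly6a and Ly6e stood at or below it. In KO the differences were 0.28 (SE 0.159) for Ly6a, 0.31 (SE 0.180) for Ly6c1, -2.58 (SE 1.40) for Ly6c2 and 0.27 (SE 0.168) for Ly6e, with adjusted p of 0.391 to 0.490 and a median of all genes of 0.34. The Ly6c2 difference in KO was -0.66 without KO m2 of 2 weeks and -3.85 without KO f2 of 4 weeks, and in WT it ran from -1.49 (without WT f3 of 4 weeks) to -0.06 (without KO f2 of 4 weeks) and turned to 0.36 with the term for mesenchymal and bone genes. No member passed in either genotype, where 8.04% and 7.56% of genes did. For Ly6c1 in WT, DESeq2, a filter of at least 10 counts in every library and the fit without the WT male m3 of 2 weeks brought the adjusted p under 0.05, at 0.019064 to 0.0457366 with log2 fold changes of 0.51 to 0.61. The term for mesenchymal and bone genes brought Ly6c1 in WT and Ly6a in both genotypes under 0.05. That term was added after the data were seen and is made from the sum that divides the 4-week libraries as Ly6a does, and nothing is read from these passes.

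Other surface genes of these cells did rise. Gpihbp1 rose by 0.65 (SE 0.140, adjusted p = 0.0109) in WT and 0.93 (SE 0.150, adjusted p = 0.00204) in KO on the log2 scale. Pecam1 rose by 1.18 in both genotypes and the endothelial cadherin gene Cdh5 by 1.11 in WT and 1.27 in KO. Plaur rose in WT (1.58, SE 0.424, adjusted p = 0.0350) and was at 1.37 (SE 0.441, adjusted p = 0.0759) in KO; the difference of its KO effects was -0.20 (SE 0.593, adjusted p = 1). Cd59a rose in KO (1.39, SE 0.372, adjusted p = 0.0366) and was at 0.19 (SE 0.347, adjusted p = 0.929) in WT, a difference of 1.20 (SE 0.502) that did not pass (adjusted p = 0.435). Lynx1, which modulates nicotinic receptors, was at 0 counts in all 4 WT libraries of 2 weeks and at 54 to 365 counts in the 5 of 4 weeks, and also passed in WT (adjusted p = 0.0265). In KO it was at 0 to 656 counts at 2 weeks and 33 to 375 at 4 weeks, with adjusted p = 0.989, and the difference between the genotypes did not pass (adjusted p = 0.308). Of 11 family genes tested, 3 rose in WT and 2 in KO, where 5.74% and 5.7% of all genes rose. The family medians were 0.47 and 0.28 against 0.27 and 0.34 over all genes.

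Interferon response genes moved in both directions between the time points. Of 29 tested, 1 rose and 6 fell in WT, and 1 rose and 5 fell in KO, with medians of -0.31 and -0.19 against 0.27 and 0.34 over all genes. Of all genes, 5.74% rose and 2.29% fell in WT, and 5.7% rose and 1.86% fell in KO. Named after their values were seen, the transcription factor gene Irf1 rose (1.77 in WT and 1.42 in KO on the log2 scale). Irf7, a factor that drives interferon genes, fell by 1.94 and 2.08, and the immunoproteasome genes Psmb8 and Psmb9 fell by 0.95 and 1.20 in WT and by 1.41 and 1.05 in KO. The GTPase gene Gbp3 and the antiviral gene Ifit3 fell in both genotypes, and Oas1a in WT. GPI anchor genes gave 1 rise of 26 in WT (Dpm1) and 2 in KO (Pigt and Pigg), shares near those of all genes, with medians of 0.54 and 0.84. Dpm1, Pigt and Pigg were named because they passed.

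Among the 4-week libraries Ly6a, Ly6c1 and Ly6e were high in the same libraries, whatever the genotype. WT f3, WT m3, KO f2 and KO m3 held the 4 highest values of each of these genes: 2683 to 2990.3 CPM against 1930.4 to 2326 CPM in the other 5 for Ly6a, 4222 to 5295 against 3149.7 to 4150.3 CPM for Ly6c1, and 5659.9 to 6519 against 4277 to 5169 CPM for Ly6e. WT and KO each gave 2 of these libraries. The split was not limited to these genes. Of all 15209 genes tested at 4 weeks, 3.73% were likewise higher in each of the 4 than in every other library. Over 3541 genes, deviations of WT f3 and WT m3 correlated at 0.5291 to 0.5997 with those of KO f2 and KO m3. With KO m1 and KO m2 they correlated at -0.6011 to -0.4569. For the other WT libraries these values were -0.5319 to -0.1555 and 0.175 to 0.5649. Ly6c2 was highest in WT f3, but KO m3 was only the seventh of the 9 in Ly6c2. The 2-week libraries did not show this likeness of Ly6a, Ly6c1 and Ly6e. Ly6a and Ly6e had r = -0.11 over those 8 libraries against 0.98 over the 9 of 4 weeks. Ly6a and Ly6c1 had 0.40 against 0.86, and Ly6c1 and Ly6e 0.42 against 0.76 (TMM-scaled log2 CPM, as a description).

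The same libraries were lowest in the summed level of 12 mesenchymal and bone genes, at 1142 to 1571 CPM against 2727 to 3641 CPM in the other 5. Of the 12 genes, 10 of them among the genes tested at 4 weeks, 2 did not overlap between the sets, 9 did and 1 was at 0. Over all 15209 genes tested at 4 weeks, 11.1% did not overlap between these sets, 7.4% being lower and 3.73% higher in the 4 libraries, so nothing is read from the count of 2. The 2 made up most of the sum: Cxcl12 (818 to 1131 against 2006 to 2803 CPM), a chemokine that holds blood stem cells in marrow, and Kitl (269 to 415 against 636 to 780.4 CPM), the ligand of Kit. Pdgfrb, a receptor of mural and stromal cells, ran the same way with a small overlap (0.830 to 12.5 against 9.70 to 69.7 CPM), as did Lepr (14.8 to 36.0 against 30.4 to 62.6 CPM). The ranges of Pdgfra (0.114 to 4.00 against 0 to 3.58 CPM), Col1a1 (9.34 to 20.0 against 8.33 to 48.7 CPM) and Dcn (2.37 to 18.7 against 0.560 to 22.6 CPM) overlapped widely. Those of Col1a2 (10.8 to 15.1 against 6.89 to 33.6 CPM) and Lum (0.408 to 6.37 against 0 to 5.78 CPM) did too. Runx2 (0 to 1.08 against 0 to 0.652 CPM) and Bglap (0.244 to 1.43 against 0 to 1.57 CPM) overlapped as well. Sp7, a factor of bone-forming cells, was at 0 in all 9. The sum thus follows Cxcl12 and Kitl, and the list as a whole did not separate the sets. All 12 genes of the list are named here, after their values were seen. Erythroid sums were 1127 to 2502 CPM in the 4 libraries and 172 to 621 CPM in the other libraries except KO m2, which had the highest of the 9 (2922 CPM). Monocyte and macrophage sums were 68.1 to 132 against 40.8 to 77.3 CPM. Pan-endothelial sums overlapped (13190 to 15144 against 13680 to 16892 CPM), as did arterial sums (2436 to 2742 against 2192 to 2855 CPM), detected genes (17716 to 19316 against 15996 to 21235) and mitochondrial shares (6.59% to 8.99% against 4.66% to 7.69%). The part of these differences in the Ly6 levels was not tested. The libraries were singled out by their Ly6 values, so no test was made between the sets.

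**Figure D4:**
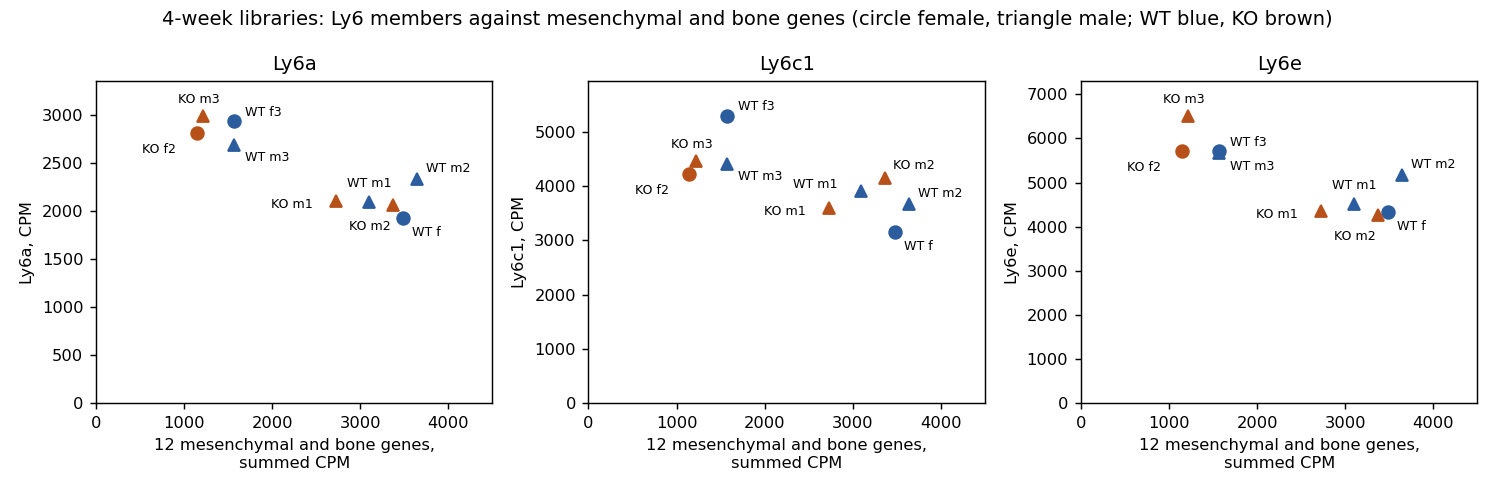
CPM of Ly6a, Ly6c1 and Ly6e against the summed CPM of 12 mesenchymal and bone genes in the 9 libraries of 4 weeks. Cxcl12 and Kitl made up most of this sum. WT f3, WT m3, KO f2 and KO m3 sit at 1142 to 1571 CPM on the horizontal axis and hold the 4 highest values of each gene.

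Over all 17 libraries, after the mean of each time point was subtracted, the genes whose log2 CPM followed Ly6a most closely were Gm9800 (r = 0.931), Ptma (0.924), which encodes prothymosin alpha, and Fxyd5 (0.916), a regulator of the sodium pump. Within the time points these r were 0.754, 0.467 and 0.695 at 2 weeks and 0.951, 0.960 and 0.932 at 4 weeks. For Ly6e the nearest genes were Sparc (0.880), a matrix-associated protein, Fxyd5 (0.851) and R74862 (0.831). Their likeness to Ly6e was mostly that of 4 weeks (0.941, 0.944 and 0.968), against 0.663, 0.468 and 0.231 at 2 weeks. For Ly6c1 the nearest were Sfr1 (0.815), the ribosomal protein gene Rpl6 (0.785) and Manf (0.782), which encodes a protein of the endoplasmic reticulum, and each of these was at 0.778 or more at both time points. For Ly6c2 the nearest were Gm13456 (0.848), the small GTPase gene Rap1b (0.829) and Golga7 (0.801). Their likeness to Ly6c2 was mostly that of 2 weeks (0.896, 0.864 and 0.862), against 0.415, 0.283 and 0.415 at 4 weeks. The search covered 3540 genes (3541 for Ly6c2), and no member was among the 3 nearest genes of another. These values are descriptions: all genes of a library share its depth and composition.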

How the data were processed

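The authors deposited a table of raw counts for each library, whole numbers with no scaling. Per the submitters' processing notes, cutadapt, STAR, HTSeq 0.6.1p1 and the build GRCm38 (mm10) were used; the annotation, strand setting and treatment of shared reads are not given in the sources used here. Symbols matched 49326 of 49585 identifiers.

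The members and gene lists were chosen with earlier results of these data known. KO was compared with WT within a time point, with a term for sex, in edgeR 4.0.16 (filterByExpr, TMM, robust quasi-likelihood); other contrasts used 1 fit of all 17 libraries. P-values were adjusted by Benjamini-Hochberg over all genes, at 0.05. The edgeR steps were also run on simulated data, with planted changes far larger than the fitted KO effects of Ly6a, Ly6c1 and Ly6e. The outcome is not given here, and nothing about the members is read from it. Alternatives were DESeq2 1.42.0, limma 3.58.1 voom, other scalings, filters and terms, Ly6c1 and Ly6c2 summed, and each library left out; the term for mesenchymal and bone genes was added after the data were seen. Besides the members, the text names the 6 most abundant other family genes, the 3 genes most like each member (mean log2 CPM of at least 5), gate and label checks, and up to 2 genes of other lists; exceptions are marked.

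Replicate numbers come from the titles. Deviations of same-numbered WT and KO libraries correlated at -0.048 to 0.044 at 2 weeks and at 0.175 to 0.583 in the 4-week males. The latter all exceed 0.1. Differently numbered 4-week libraries correlated at -0.601 to 0.600, and WT m2 correlated more with KO m1 (0.202) than with KO m2 (0.175). These values therefore do not show that the numbers pair the libraries, and the replicate block was run as an alternative only. In no pair of libraries of a group (28 pairs) were the counts alike within sampling noise, with chi-square over its degrees of freedom at 44.1 or more.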

Additional observations from a re-analysis of the deposited data

Results flagged for a closer look

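In 47 sets of values of 1 gene or ratio in 1 group, 8 had a library that stood apart from the rest by Dixon's gap criterion; chance alone gives about 1 in 20 where values vary freely. That rate does not apply to the 4 sets of Ly6g and Ly6g6d below, in which every other library was at 0, so that any count stands apart. Among the members this was Ly6c2 in the 2-week KO male m2, at 79.6 CPM against 0.861 to 10.01 CPM in the other 3. The 4-week KO male m1 was low in Gpihbp1 (1332 CPM). Plaur was low in the 2-week WT female f4 (13.5 CPM) and high in the 2-week KO female f1 (45.8 CPM). Ly6g6d was detected in 1 of 4 WT libraries at 2 weeks, the male m3 (5.25 CPM). Ly6g was above 0 in a single library of 3 groups: the 2-week WT female f4 (0.0245 CPM, 1 count), the 4-week WT male m3 (0.857 CPM, 21 counts) and the 4-week KO male m2 (0.0374 CPM, 1 count).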

How the results depend on the processing

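Over 32 results on the members and their ratios and 695 alternatives, 689 kept their side of the threshold, 6 passed where the main value had not, and 0 lost a call; in 55 the sign differed from a main value that had not passed. The passes were for Ly6c1 between 4 and 2 weeks in WT with DESeq2 (0.51), with at least 10 counts in every library (0.57), with a term for mesenchymal and bone genes (0.59), and without the 2-week WT male m3 (leave-one-out range 0.29 to 0.61); the term also brought through Ly6a in WT (0.43) and in KO (0.42). The cause was not tested.

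With the replicate block the KO effects were 0.04 (Ly6a), 0.17 (Ly6c1), 0.68 (Ly6c2) and -0.05 (Ly6e) at 2 weeks. At 4 weeks they were 0.07, 0.03, -0.30 and 0.05. The correlations showed pairing by number at neither time point. The block changed no call of a member, and took the genes called for the difference and the mean of KO effects from 14 and 13 to 0 and 0.

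Counts of all genes called moved more. KO effects: 0 at 2 weeks against 149 (DESeq2), 12 (voom) and 33 (joint fit); 0 at 4 weeks against 17 (DESeq2). Difference of KO effects: 14 against 929 (DESeq2), 8 (voom), 6 (no filter), 0 (stricter filter) and 7 to 52 without 1 library, highest without the 2-week KO male m2. Mean KO effect: 13 against 1004 (DESeq2), 8 (no filter, and the mesenchymal term), 3 (stricter filter) and 5 to 62, highest without the same library. Between time points: 1086 in WT and 1022 in KO against 2090 and 2144 (DESeq2), 580 and 567 (no filter), 639 and 626 (stricter filter), and 520 to 1398 and 604 to 1300 without 1 library. Male minus female: 4 against 75 (DESeq2), 0 (stricter filter) and 2 to 5. Ly6c2 had 23 to 137 counts in 13 of 17 libraries; the SE of its KO effect was larger at 2 weeks (1.08), where counts reached 2365, than at 4 weeks (0.639).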
